A study of Homo sapiens with 8 samples.

Results

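Keratinocytes that received the CARD14 variant N737H were compared with keratinocytes that received the variant I593T. The comparison uses 4 of the 8 libraries of the study: the N737H libraries A and B and the I593T libraries A and B, matched by letter. All groups were HaCaT cells, an immortalised human keratinocyte line, with the genotype CARD14 KO, grown in low-glucose medium with serum. Each 10 cm dish was transfected with 9 ug of a plasmid encoding CARD14, the self-cleaving peptide T2A and eGFP. Medium was replaced at 2 h, and cells positive for GFP were collected by sorting at 24 h. The plasmids CARD14-WT-T2A-eGFP, CARD14-R820W-T2A-eGFP, CARD14-N737H-T2A-eGFP and CARD14-I593T-T2A-eGFP gave the 4 groups, with 2 libraries each. WT and R820W serve here to estimate the spread between libraries and to place levels. The series asked how hypomorphic CARD14 variants differ from WT. N737H and I593T are both among those variants, so the contrast here sets 1 hypomorphic variant against another. As a model, it holds short-lived expression from a plasmid in 1 knockout line, in cells chosen for GFP. The labels do not say whether the knockout line is 1 clone, and no library without a plasmid was analysed here.

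CARD14 is an epithelial scaffold protein. It assembles with BCL10 and the protease MALT1, and the complex passes its signal to NF-kB and to MAP kinases. In keratinocytes this pathway is known for inducing chemokines, cytokines and antimicrobial proteins, and inherited CARD14 variants are associated with psoriasis and with atopic skin disease.

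Library totals ranged from 17892608 to 24629860 counts. Of 28518 gene rows, 14378 had 10 or more counts in at least 2 of the 4 libraries, and these were tested. The N737H library B had a count for 21059 genes, against 17836 to 18855 in the other 7 libraries, and 6149 of its genes had only 1 to 9 counts, against 4491 in the I593T library B. Levels are given as CPM, counts scaled to library size after normalization by the trimmed mean of M values (TMM). The keratinocyte markers KRT5, KRT14, KRT17, TP63 and DSP were present in all 4 libraries, with a summed level of 3362 CPM for N737H and 3446 CPM for I593T in A, and 2827 and 3808 CPM in B. Melanocyte markers summed to 8.82 to 13.97 CPM, with TYR and DCT at 0 in all 4 libraries. The leukocyte marker PTPRC was at 0 to 0.0976 CPM and the fibroblast marker VIM at 0.0405 to 0.247 CPM. Most of the summed fibroblast (171 to 421 CPM) and leukocyte (51.8 to 73.5 CPM) markers was FN1 and CD68. These are bulk samples, in which fewer cells of a type and less RNA per cell cannot be told apart.

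CARD14 itself, the transfected gene, was present in every library. It stood at 452 CPM with N737H and 502 CPM with I593T in A. In B it stood at 997 CPM with N737H and 1377 CPM with I593T. The WT libraries had 1119 CPM (A) and 997 CPM (B), and the R820W libraries 1183 and 1403 CPM. Both A libraries of the comparison were therefore low and close to each other, while in B the N737H library held less CARD14 RNA than the I593T library. The fitted log2 difference, N737H minus I593T, was -0.34 ± 0.36 (SE), with a 95% interval from -1.19 to 0.51 and an adjusted p of 1.00 by edgeR's quasi-likelihood test with Benjamini-Hochberg adjustment. The within-letter log2 differences were -0.15 in A and -0.47 in B. The fitted value was 0.26 without the I593T library B and -0.79 without the I593T library A, so its sign rests on single libraries. The counts do not separate plasmid RNA from RNA of the endogenous locus. Because CARD14 RNA was lower with N737H in both letters, the part of the CARD14 level in the gene differences below was not tested. The transcription factor MYC, named in the title of the series, had 752 CPM with N737H and 745 CPM with I593T in A, and 635 and 806 CPM in B, a log2 difference of -0.16 ± 0.14 (SE).

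Over the 2 letters, no gene passed the adjusted threshold of 0.05 (0 of 14378, 0.00%) by edgeR, and DESeq2 and limma voom with the same design also called 0. At an unadjusted p under 0.05 there were 278 genes (1.93%), fewer than the 718.9 that 5% of the genes tested would be. Of these, 124 were higher with N737H (0.862%) and 154 lower (1.07%). The design leaves 3 residual degrees of freedom with the letter as a block, and p-values reflect only how far these libraries spread, which may be technical. Nothing below passed the adjusted threshold unless this is stated. Genes are described by their values and lists by counts. Each list's count is to be read against the share over all genes tested. Of all genes, 48.6% lay below 0, 22.4% were lower and 23.8% higher with N737H in both letters, 9.52% had both N737H libraries below both I593T libraries, and 9.83% had both above.

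The genes lower with N737H that had the smallest p-values included secreted products of keratinocytes. CSF2 encodes the growth factor GM-CSF. Its level was 16.2 CPM with N737H and 25.8 CPM with I593T in A, and 13.03 and 23.8 CPM in B. Both N737H libraries lay below both I593T libraries, which held for 9.52% of all genes tested. The log2 difference was -0.77 ± 0.17 (SE; unadjusted p = 0.00254, adjusted p = 1.00 in edgeR), and it ranged from -0.94 to -0.60 with single libraries left out. LCN2, which encodes the antimicrobial iron-siderophore binder lipocalin 2, stood at 36.1 and 54.3 CPM in A and at 25.3 and 40.6 CPM in B, N737H first. The groups did not overlap, and the log2 difference was -0.63 ± 0.18 (SE). IL23A, the p19 subunit of interleukin 23, stood at 41.4 and 56.0 CPM in A and at 20.9 and 30.8 CPM in B. PI3, the protease inhibitor elafin, stood at 88.7 and 122 CPM in A and at 26.8 and 38.5 CPM in B. For IL23A and PI3 the groups overlapped, because A libraries were higher than B libraries for both variants, and N737H was lower within each letter. Their log2 differences were -0.50 ± 0.15 and -0.49 ± 0.15 (SE).

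CSF2, LCN2 and the chemokine gene CCL20 are often studied as NF-kB targets. The 250 bases before their starts are shown (RefSeq, GRCh38.p14, plus strand). Positions are chr5:132073539-132073788 for CSF2, chr9:128149203-128149452 for LCN2 and chr2:227813592-227813841 for CCL20. Capitals mark matches to a kappaB form (GGGAA, any 3 bases, CC) or the AP-1 form TGANTCA, searched on both strands.
CSF2: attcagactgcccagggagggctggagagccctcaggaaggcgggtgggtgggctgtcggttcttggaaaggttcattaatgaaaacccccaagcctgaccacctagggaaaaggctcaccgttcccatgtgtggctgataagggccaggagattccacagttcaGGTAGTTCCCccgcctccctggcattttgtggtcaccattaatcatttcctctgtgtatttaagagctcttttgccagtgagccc
LCN2: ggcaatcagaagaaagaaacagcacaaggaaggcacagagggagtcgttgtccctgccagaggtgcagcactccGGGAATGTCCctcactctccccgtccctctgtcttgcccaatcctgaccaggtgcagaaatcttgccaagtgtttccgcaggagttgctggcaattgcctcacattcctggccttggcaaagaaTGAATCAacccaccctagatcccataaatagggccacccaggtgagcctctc
CCL20: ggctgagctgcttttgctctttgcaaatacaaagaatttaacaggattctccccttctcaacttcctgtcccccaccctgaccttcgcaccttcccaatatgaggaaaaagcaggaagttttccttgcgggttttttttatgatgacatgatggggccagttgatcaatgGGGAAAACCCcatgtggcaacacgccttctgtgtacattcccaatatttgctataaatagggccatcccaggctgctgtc
Each of the 3 windows held 1 kappaB match, beginning 85 bases before the start in CSF2, 176 in LCN2 and 80 in CCL20. The LCN2 window also held 1 AP-1 match, 52 bases before the start, and no AP-1 and kappaB matches overlapped. Over 35116 promoters of the same length, 6.02% held a kappaB match and 6.57% an AP-1 match. The IL23A window held 1 AP-1 match and no kappaB match, and the IL36G window held neither. PI3 was also sought and had no entry among these promoters. A looser kappaB form (GGG, any 5 bases, CC) was searched first and matched 54.4% of promoters. The genes and the narrower form were chosen after their values and matches were seen, so the matches describe these windows only.

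**Figure D1:**
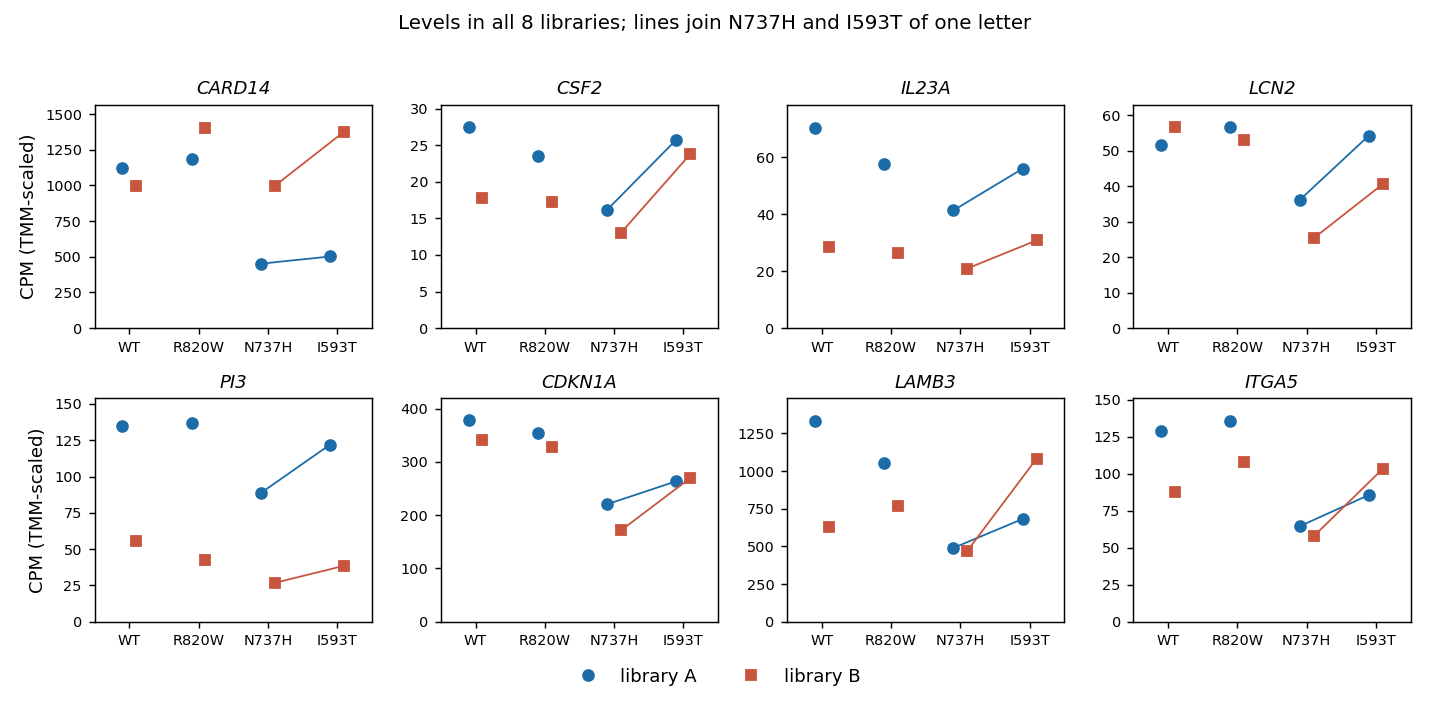
Level of 8 genes in each of the 8 libraries in CPM after TMM scaling, on linear axes from 0, with the 4 groups on the x axis, circles for A and squares for B, and a line joining N737H to I593T of the same letter. Each line goes up from N737H to I593T, for CARD14 from 452 to 502 CPM in A and from 997 to 1377 CPM in B, and none of the 8 genes passed the adjusted threshold.

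Growth and adhesion genes were also among the 12 lower genes of smallest p. CDKN1A, the cell-cycle inhibitor p21, stood at 221 CPM with N737H and 264 CPM with I593T in A, and at 171 and 270 CPM in B. Both N737H values lay below both I593T values, with a log2 difference of -0.45 ± 0.14 (SE). ITGA5, the fibronectin-receptor subunit integrin alpha 5, stood at 64.5 and 85.7 CPM in A and at 57.7 and 103 CPM in B. Its log2 difference of -0.64 ± 0.20 (SE) came to -0.31 without the I593T library B. EHD1, which acts in endocytic recycling, stood at 29.6 and 35.6 CPM in A and at 23.5 and 47.8 CPM in B, most of the difference being in B. Also among the 12 were ADRBK1 (a G-protein-coupled receptor kinase), NPRL3 (a subunit of the GATOR1 complex, which restrains mTORC1), PTCD1 (a mitochondrial pentatricopeptide protein) and the zinc-finger gene ZBTB45. Their log2 differences were -0.95, -0.65, -0.60 and -0.64. The read-through model ATP5J2-PTCD1, named after its value was seen, lay the other way in A alone, with a fitted log2 difference of 10.7. How reads were split between this model and PTCD1 is not known, so the value of PTCD1 is uncertain. Of the 12 genes, 7 had no overlap between the groups, as 9.52% of all genes tested had in that direction. Choosing genes by p-value and shared direction favours this. All 12 were lower with N737H than in the WT library of the same letter, in both letters. With I593T this held for 3 of the 12. For the 12 higher genes described next, I593T was below WT in both letters in 8 and N737H in 0. Choosing genes by a low or high N737H value favours such counts, and the comparisons with WT use the same WT libraries, so these counts are given side by side only.

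The 12 genes higher with N737H of smallest p included BBS10, KNTC1 and RCBTB1. BBS10, a chaperonin-like gene of the primary cilium, stood at 31.2 CPM with N737H and 25.1 CPM with I593T in A, and at 29.0 and 19.2 CPM in B. KNTC1, a component of the kinetochore checkpoint, stood at 78.6 and 64.7 CPM in A and at 76.8 and 57.2 CPM in B. RCBTB1 stood at 26.4 and 20.1 CPM in A and at 27.3 and 21.1 CPM in B. For these 3 genes the groups did not overlap, which held in the higher direction for 9.83% of all genes tested, and the log2 differences were 0.45 ± 0.15, 0.35 ± 0.12 and 0.38 ± 0.14 (SE). The zinc-finger genes ZNF799 and ZNF160 had log2 differences of 0.66 and 0.62. For DPY19L2P2, C12orf50 and FAM122C the difference lay mainly in B. C12orf50, for example, had 7.40 and 6.15 CPM in A but 38.7 and 8.74 CPM in B, with the high value in the N737H library B. RGPD5 and RGPD6 belong to a family of near-identical copies, P2RX5-TAX1BP3 is a read-through model, and AL049935 is named by a sequence record. How reads were split among such genes is not known, so their values are uncertain. Of the 12 genes, 8 had no overlap between the groups, a count that the choice by p-value and shared direction favours. The log2 differences of the 12 ranged from 0.35 to 1.79.

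Among CARD14's own partners, the core members differed little. BCL10 stood at 108 CPM with N737H and 111 CPM with I593T in A and at 93.4 and 96.6 CPM in B. MALT1 stood at 8.13 and 8.21 CPM in A and at 6.29 and 6.64 CPM in B. Over the 25 members tested of a list of the complex, its kinases, ubiquitin ligases and inhibitors, 0 passed the threshold, 18 had a log2 difference below 0 (48.6% of all genes tested did) and 13 were lower in both letters (22.4% of all genes). The median was -0.16, against 0.01 for all genes. The lowest p-values were those of 2 inhibitors of the pathway. ZC3H12A, an RNase that degrades inflammatory transcripts, stood at 15.5 and 18.5 CPM in A and at 18.5 and 30.6 CPM in B. TNIP1, which binds the deubiquitinase A20, stood at 142 and 152 CPM in A and at 84.9 and 141 CPM in B. TNFAIP3, which encodes A20 itself, had 180 and 256 CPM in A and 170 and 228 CPM in B, with no overlap between the groups but a larger standard error (-0.46 ± 0.35). The inhibitor NFKBIA was higher in B than in A for both variants (84.5 and 99.3 CPM in A, 182 and 294 CPM in B). Of the 12 tested NF-kB subunits and feedback inhibitors, 10 lay below 0 in the fit, with a median of -0.16. The number below 0 was 7 without the N737H library B. Of the 12, 6 were lower with N737H in both letters (22.4% of all genes were), and 5 were higher in A but lower in B. By letter, the list's differences centred on 0.00 for A but on -0.27 for B (medians), so the shift of this list lay mainly in B.

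Targets of the pathway that act in survival and adhesion lay mostly below 0. Of 17 tested, 0 passed the threshold, 13 lay below 0 (48.6% of all genes did), and 6 had both N737H libraries below both I593T libraries (9.52% of all genes). BCL2L1, which encodes the survival protein BCL-XL, stood at 84.1 and 94.3 CPM in A and at 77.2 and 117 CPM in B. The syndecan gene SDC4, the most abundant by CPM, overlapped between the groups (746 and 777 CPM in A, 440 and 561 CPM in B). The median of the list was -0.20.

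The chemokines lay in both directions. Of 18 tested, 0 passed the threshold, 10 lay below 0 and the same number were lower in both letters (22.4% of all genes were), while 6 were higher in both letters (23.8%). The number below 0 was 16 without the N737H library A and 14 without the I593T library B, so how the family divides rests on single libraries. The members below 0 attract neutrophils, T cells or monocytes. CCL3 stood at 42.6 CPM with N737H and 57.7 CPM with I593T in A and at 26.2 and 43.2 CPM in B. CCL4 stood at 2.81 and 4.33 CPM in A and at 1.71 and 3.86 CPM in B. CCL20, the ligand of CCR6, stood at 6.11 and 8.05 CPM in A and at 4.49 and 6.84 CPM in B. In these 3 genes both N737H libraries lay below both I593T libraries, with log2 differences of -0.59 ± 0.21, -0.88 ± 0.35 and -0.50 ± 0.19 (SE). CXCL5, IL8 and CXCL1, ligands of neutrophil receptors, were lower within each letter but overlapped between groups, with log2 differences of -0.65, -0.36 and -0.29. The members above 0 in both letters included CXCL10, an interferon-induced chemokine, at 24.2 and 16.3 CPM in A and at 14.5 and 13.2 CPM in B. The list's median was -0.26 in the fit, -0.02 in A and -0.31 in B.

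Other secreted cytokines had 14 of 17 tested members below 0 and a median of -0.39, and 8 were lower in both letters. With the N737H library B left out, the number below 0 was 11. CSF3, the granulocyte growth factor, stood at 8.97 and 12.7 CPM in A and at 7.76 and 9.28 CPM in B. Restricted to genes with at least 10 counts in all 4 libraries, the list had a median of -0.22. IL15, which supports T and natural killer cells, lay in the other direction, at 3.65 and 2.47 CPM in A and 5.12 and 2.88 CPM in B. Of the IL-1 and IL-36 family, 6 of 13 lay below 0 and the median was 0.00. In both letters, 6 of the 13 were lower with N737H (22.4% of all genes were) and 5 were higher (23.8%). The 6 included IL1A, IL1B, IL36G and the decoy receptor IL1R2. IL1B stood at 188 and 251 CPM in A and 150 and 198 CPM in B, and IL36G at 15.0 and 21.2 CPM in A and 9.56 and 12.01 CPM in B. The antagonist IL1RN had 188 and 176 CPM in A and 253 and 271 CPM in B, a log2 difference of 0.00.

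All 4 tested antimicrobial genes, of 16 listed, were lower with N737H in both letters. They were LCN2, PI3, SLPI and RNASE7. SLPI had a log2 difference of -0.24 ± 0.27 (SE), and the median of the 4 was -0.43. LCN2 and PI3 are already counted among the genes above. The 6 tested members of the SPRR family, which are crosslinked into the cornified envelope, lay below 0, and 4 were lower in both letters. SPRR1B stood at 9.07 and 12.99 CPM in A and at 10.7 and 18.5 CPM in B. SPRR2A stood at 4.88 and 8.98 CPM in A and at 1.66 and 2.30 CPM in B. Without the I593T library A, 3 of the 6 lay below 0, and SPRR2 genes share sequence, which makes their split uncertain. Late differentiation genes outside this family had 9 of 14 below 0 and a median of -0.05. The list's 1 member with an unadjusted p under 0.05 in edgeR lay above 0. It was FLG2, at 0.690 and 0.324 CPM in A and at 1.32 and 0.293 CPM in B, levels of few counts.

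**Figure D2:**
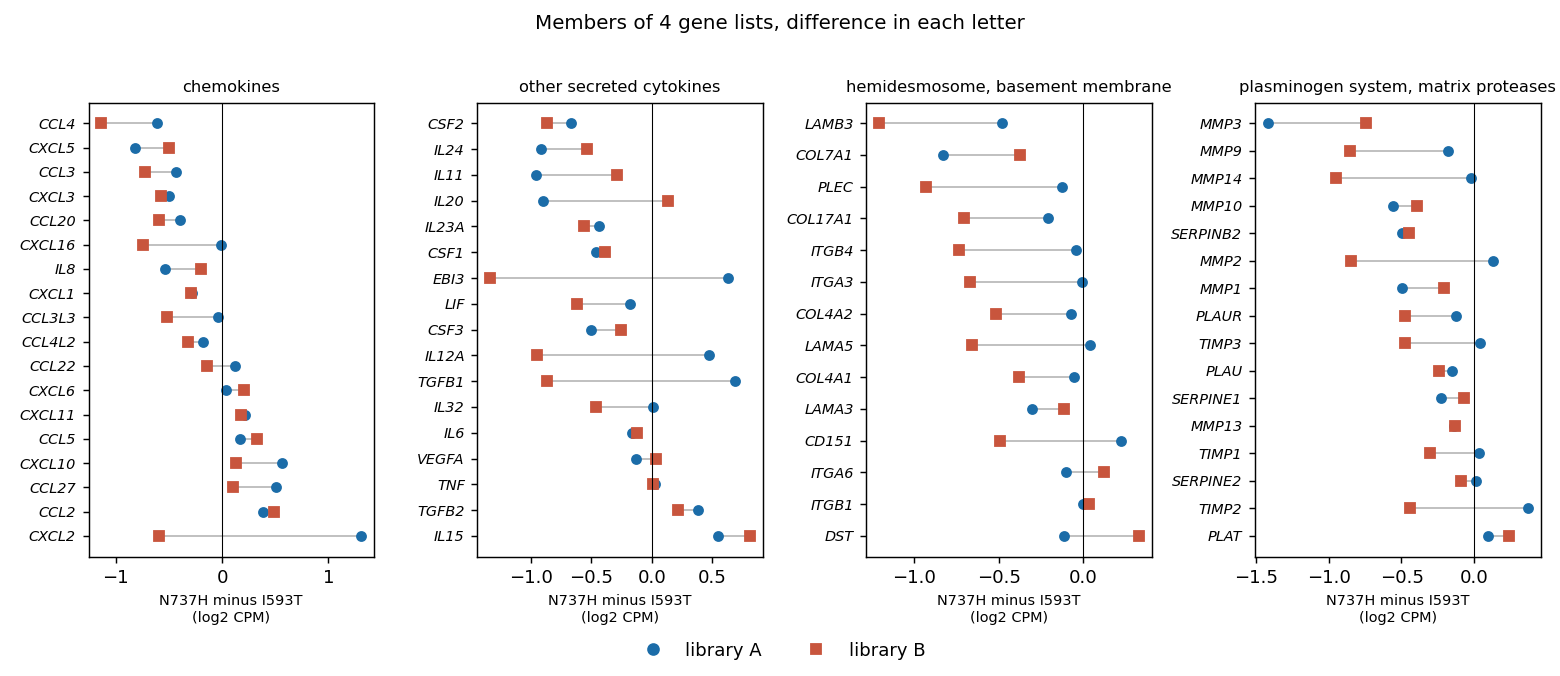
Difference of log2 CPM, N737H minus I593T, for tested members of 4 gene lists (1 member is not drawn), in A (circles) and B (squares), ordered by the fitted log2 difference, with a grey line joining the letters. CSF2, CCL3, CCL20 and LAMB3 lie left of 0 in both letters, while IL15 and CXCL10 lie right of it.

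Genes that attach keratinocytes to the basement membrane lay mostly below 0. Of 15 hemidesmosome and basement membrane genes tested, 0 passed the threshold, 12 lay below 0, 10 were lower in both letters (22.4% of all genes were) and 7 had no overlap in that direction (9.52% of all genes). The median was -0.29 in the fit, -0.10 in A and -0.49 in B. LAMB3, the beta chain of laminin 332, stood at 490 CPM with N737H and 682 CPM with I593T in A and at 470 and 1083 CPM in B. The WT libraries had 1330 CPM (A) and 626 CPM (B). Within letters, N737H was below WT in A and in B, while I593T was below WT in A and above it in B. The log2 difference was -0.91 ± 0.36 (SE; unadjusted p = 0.0369), and it was -0.22 without the I593T library B. LAMA3, the alpha chain, overlapped between the groups (1673 and 2062 CPM in A, 1299 and 1407 CPM in B). COL17A1, the transmembrane collagen of hemidesmosomes, stood at 161 and 186 CPM in A and at 163 and 267 CPM in B. JUP, plakoglobin of desmosomes, stood at 63.0 and 67.5 CPM in A and at 65.5 and 133 CPM in B, whereas the desmosome list as a whole had 5 of 11 below 0 and a median of 0.00.

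Of 16 tested plasminogen activators, inhibitors and matrix proteases, 15 lay below 0 and 10 were lower in both letters. SERPINB2, the plasminogen activator inhibitor 2, stood at 1903 and 2680 CPM in A and at 1408 and 1921 CPM in B, without overlap. MMP1, interstitial collagenase, stood at 499 and 703 CPM in A and at 906 and 1047 CPM in B, with overlap. PLAU, urokinase, had 554 and 615 CPM in A and 305 and 362 CPM in B. The median was -0.26, and 12 lay below 0 without the N737H library B. The keratin medians were also nearer 0 in A than in B, a difference between letters that was not tested for lists. Of 9 suprabasal and stress keratins, 8 lay below 0, and the medians were -0.03 (A) and -0.41 (B). KRT17, a keratin of wounded and psoriatic skin, stood at 1226 and 1334 CPM in A and at 1020 and 1649 CPM in B. KRT8 and KRT18, the simple-epithelial pair, had log2 differences of -0.28 ± 0.17 and -0.29 ± 0.16 (SE), with -0.03 and -0.09 in A.

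Immediate-early and AP-1 genes had 16 of 19 tested members below 0 and 10 lower in both letters. The median was -0.27, and -0.02 in A. FOSL1, an AP-1 subunit, stood at 235 and 327 CPM in A and at 400 and 648 CPM in B, so that the B libraries were the higher for both variants. FOS stood at 222 and 189 CPM in A and at 117 and 194 CPM in B, in opposite directions. Without the N737H library B, 12 of the 19 lay below 0. The ERK phosphatase gene DUSP4 stood at 23.5 and 29.6 CPM in A and at 28.6 and 46.8 CPM in B, and the ERK feedback list had 10 of 16 below 0. EGF receptor ligands included HBEGF, at 70.1 and 103 CPM in A and 60.4 and 79.99 CPM in B, in a list with 9 of 13 below 0. Of 26 YAP targets, 17 lay below 0 with a median of -0.12. Without the I593T library B, 7 lay below 0 and the median was 0.08, so the direction of this list rests on 1 library. The matricellular protein gene CYR61 had 87.6 and 110 CPM in A and 148 and 257 CPM in B.

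Ribosome biogenesis genes downstream of MYC had 31 of 39 below 0, but the median was only -0.06, and 12 were lower in both letters. Without the I593T library B, 19 of the 39 lay below 0 and the median was 0.00. BOP1, a pre-ribosome assembly factor, stood at 17.7 and 19.9 CPM in A and at 15.7 and 26.7 CPM in B. Among p53 targets, 13 of 22 lay below 0, and 10 did without the N737H library B. CDKN1A, PLK3 and AEN had unadjusted p-values of 0.0121, 0.0451 and 0.0467. Of 20 endoplasmic-reticulum chaperones and quality-control genes, 16 lay below 0. MANF stood at 8.38 and 12.5 CPM in A and at 12.2 and 19.6 CPM in B, and SYVN1 at 21.5 and 24.2 CPM in A and 15.96 and 26.3 CPM in B. HSPA5, the main chaperone of this compartment, had 5682 and 5790 CPM in A and 4247 and 4734 CPM in B, a log2 difference of -0.09 ± 0.14 (SE).

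Interferon-stimulated genes lay the other way. Of 40 tested, 0 passed the threshold, 25 lay above 0, 19 were higher in both letters (23.8% of all genes tested were) and 7 had both N737H libraries above both I593T libraries (9.83%). Their differences were small, with a median of 0.07 against 0.01 for all genes. IFIT3, an antiviral tetratricopeptide protein, stood at 2057 CPM with N737H and 1764 CPM with I593T in A and at 2381 and 2281 CPM in B. The list's median was -0.08 without the N737H library A and -0.03 without the I593T library B. It was 0.20 without the N737H library B, so the direction of the list rests on single libraries. Of the 4 tested interferon genes, IFNL2 stood at 1.53 and 0.850 CPM in A and at 2.20 and 1.12 CPM in B, levels of few counts. Proliferation and DNA replication genes had 24 of 37 above 0 and a median of 0.03. Without the N737H library A, 6 lay above 0 and the median was -0.16, and without the I593T library B, 14 lay above 0 and the median was -0.03.

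**Figure D3:**
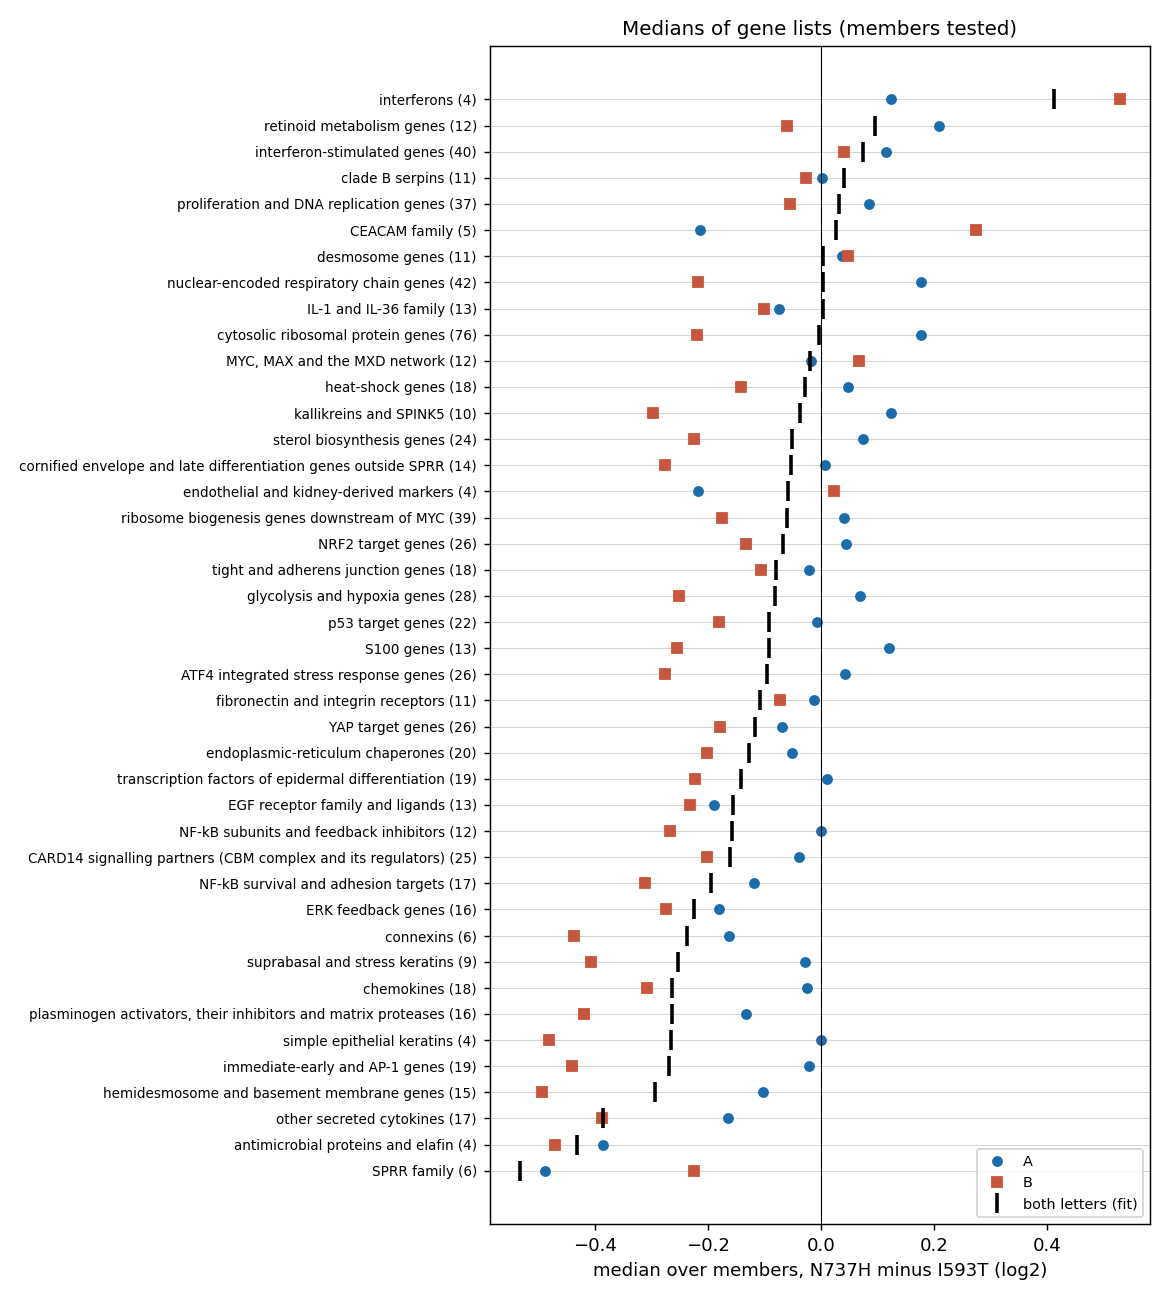
Median difference of log2 values, N737H minus I593T, over the tested members of each gene list, in A (circles), in B (squares) and in the fit over both letters (bars), with the number tested in brackets. SPRR genes (-0.53), antimicrobial genes (-0.43) and secreted cytokines (-0.39) lie lowest in the fit, and the ribosomal and respiratory chain lists lie right of 0 in A and left of it in B.

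The A libraries were compared alone, since their CARD14 levels were close. Of 14378 genes, 17 passed the adjusted threshold (0.118%), 8 higher and 9 lower with N737H, and 157 had an unadjusted p under 0.05 (1.09%). Here the spread came from WT and R820W, and the lone libraries were assumed to vary like them. All 17 had a mean of at most 10.6 CPM, 13 had a library at 0, and 10 carried hyphenated read-through names. SLMO2-ATP5E, a read-through model, stood at 1.13 and 7.69 CPM in A and at 1.46 and 9.67 CPM in B. RPL17-C18orf32 stood at 3.01 and 0 CPM in A and at 8.69 and 1.12 CPM in B. Both were named after their values were seen, and both kept their direction in B. Other read-through models, C17orf61-PLSCR3, C7orf55-LUC7L2 and UBE2F-SCLY, went in opposite directions in A and B. UBE2F-SCLY, for example, stood at 0 and 4.49 CPM in A and at 2.93 and 0 CPM in B. Reads of such models overlap those of their component genes, so these values are uncertain. Without the letter block the number in A was 0, and it was also 0 where at least 10 counts were required in all 4 libraries. No gene with a mean of at least 20 CPM passed in A, and none of those 6412 genes differed by 2-fold in A (0.00%).

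The largest differences in A were taken among genes with a mean of at least 20 CPM over the N737H and I593T libraries A alone. Most of them were small or in the other direction in B. SULT1A4, a sulfotransferase with a near-identical copy, stood at 30.3 CPM with N737H and 15.9 CPM with I593T in A and at 23.4 and 26.4 CPM in B. CRIP1 and the glycerol channel AQP3 were higher in A, with differences of 0.60 and 0.53, and lower in B, with -0.21 and -0.40. AK293147 had 0.79 in A and -0.19 in B. The lower end in A held CXCL5 (-0.81), PRR9 (-0.70), RGPD8 (-0.70), RUNX1-IT1 (-0.70) and NEAT1 (-0.68). NEAT1, the RNA that builds paraspeckles, stood at 193 and 310 CPM in A and at 309 and 182 CPM in B, so its direction differed between the letters. CXCL5 and PRR9 were lower with N737H in B as well, by -0.50 each.

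The B libraries differed more. As in A, a single N737H library was set against a single I593T library, with the spread taken from WT and R820W. In B alone 129 genes passed (0.897%), 99 higher and 30 lower with N737H, and 1560 had an unadjusted p under 0.05 (10.8%). Of the 129 genes, 28 had a mean of at least 20 CPM, 16 of them higher and 12 lower. Among the 6412 genes of that level, 42 differed by at least 2-fold in B (0.655%), 22 higher and 20 lower, and 0 did so in both letters in 1 direction (0.00%). The SD of the log2 differences over these genes was 0.31 in B and 0.13 in A. Called in both letters were 8 genes, 4 of them in the same direction. The N737H library B also had the most genes with 1 to 9 counts, and the part of this in the 99 higher genes was not tested.

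The I593T library B was the highest of the 8 libraries for 26 of the 30 lower genes, and for all 12 of those with at least 20 CPM, as it was for 14.8% of all genes tested. A high value there favours such a call. SENP3, a SUMO protease, stood at 1177 CPM in the I593T library B and at 0.937 to 1.95 CPM in the other 7 libraries. PTP4A2, a phosphatase, stood at 894 CPM there and at 59.2 to 88.8 CPM elsewhere. Both differences rest on that library. IGFBP6, which binds insulin-like growth factor 2, stood at 156 CPM with N737H and 427 CPM with I593T in B, and at 49.2 and 46.7 CPM in A. DDRGK1 and CDC42EP1 had log2 differences of -1.42 and -1.35 in B and of -0.17 and -0.15 in A. PSMD3, a proteasome subunit, stood at 28.0 and 67.7 CPM in B, and the heat-shock factor HSF1 at 22.5 and 55.9 CPM. Their A values lay within 26.7 to 28.5 and 12.2 to 13.8 CPM. For these 5 genes too, the I593T library B stood above the other 7 libraries.

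For 93 of the 99 genes higher in B, the N737H library B was the highest of the 8 libraries, as it was for 17.2% of all genes tested. The same held for all 16 of those with at least 20 CPM. A high value in the N737H library B favours such a call, so these counts follow in part from the choice of genes. BC016143 stood at 71.2 CPM there and 13.04 CPM in the I593T library B, against 10.1 and 9.995 CPM in A. LOC100131257, LOC643406 and SHISA9 had log2 differences of 1.75, 1.70 and 1.69 in B and of -0.25, -0.31 and -0.12 in A. The R820W library B had the next highest level of these 4 genes, for example 21.3 CPM of BC016143. MORC4 (138 and 59.2 CPM in B) and the antisense RNA KCNQ1OT1 (170 and 69.5 CPM) were also highest in the N737H library B. RGPD5 was an exception, with 5.61 CPM in the N737H library B and 0.586 CPM in the I593T library B, against 9.86 and 5.75 CPM in A. The use of strand in counting is not given in the sources used here.

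**Figure D4:**
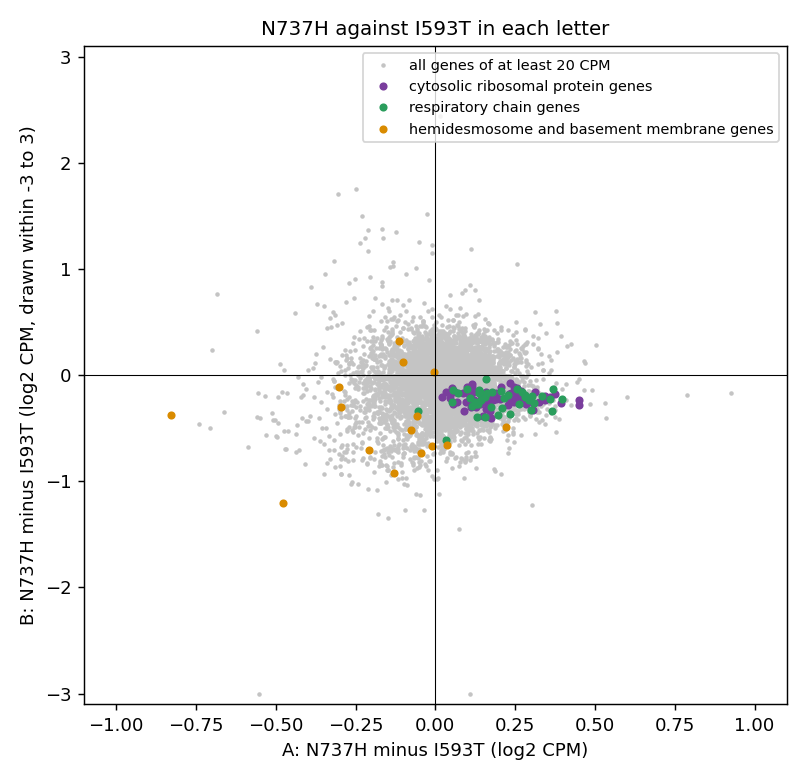
Difference of log2 CPM, N737H minus I593T, in A (x axis, -1.1 to 1.1) and in B (y axis, values beyond 3 drawn at -3 or 3), each point 1 gene. Grey points are 6412 genes with a mean of at least 20 CPM. Coloured points are the tested ribosomal protein, respiratory chain and hemidesmosome genes, at any level. All 76 ribosomal protein genes lie right of 0 in A and below 0 in B, and hemidesmosome genes lie mostly below 0 in B.

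Over the 6412 genes, the differences in A and in B had almost no relation, with Pearson's r = 0.05 and Spearman's rho = -0.01 as a description over genes, which are not independent replicates. Opposite signs occurred for 3555 genes. The plainest case was the list of cytosolic ribosomal protein genes. All 76 cytosolic ribosomal protein genes were higher with N737H in A and lower in B, a direction that 30.3% of all genes tested shared. Their medians were 0.18 in A and -0.22 in B, and -0.00 in the fit over both letters. RPS3, for example, stood at 1861 and 1686 CPM in A and 1427 and 1697 CPM in B. Of 42 nuclear-encoded respiratory chain genes, 41 had the same direction, with medians of 0.18 and -0.22. So did 69.2% of the S100 genes tested, 64.3% of the glycolysis and hypoxia genes and 61.1% of the heat-shock genes. Over the 6412 genes of at least 20 CPM, the medians were 0.04 in A and -0.09 in B. The part of expression level in this pattern was not tested. With RLE or upper-quartile scaling the ribosomal count stayed 76 of 76. With total-count scaling, which moved the median of all genes in B from -0.02 to 0.10, it was 66 of 76 for the ribosomal genes and 38 of 42 for the respiratory chain. GAPDH, of glycolysis, stood at 4360 and 3841 CPM in A and at 3351 and 4062 CPM in B. A test of the difference between the letters, added after the data were seen, called 31 genes (0.216%), and neither RPS3 nor GAPDH was among them (adjusted p = 1.00 for each by edgeR). RHOG, NELFA, AP5S1 and NPM3 also lay above 0 in A and below it in B, by 0.36 to 0.39 in A. ANKRD36, LOC284454, AK025288 and AK128707 lay below 0 in A and above it in B, and they too were not called by that test. The spread in that test came from WT and R820W only.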

How the data were processed

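RNA was counted in 8 libraries (4 groups, 2 each, A and B). The authors deposited raw whole-number counts per gene symbol. Per the submitters' processing notes, the build was hg19, and FastQC, MACS2 and DESeq2 are named without roles. What aligned and counted the reads, with which annotation and strand setting, is not given in the sources used here. Of 28518 rows, 27 names look like dates and 2 are duplicates. The letters were taken to be the independent experiments of the series text, which no label states.

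Counts of the 14378 genes with 10 or more counts in at least 2 of the 4 libraries (99.9% of counts) were TMM-normalised and fitted with edgeR 4.0.16 (R 4.3.3), quasi-likelihood, on all 8 libraries, with group and letter as terms, leaving 3 residual degrees of freedom. The two-sided tests used Benjamini-Hochberg adjustment and a threshold of 0.05. Standard errors come from the fold change and its F statistic. Within a letter, log2 CPM values (prior count 2) were subtracted. For A alone and B alone, the other letter's N737H and I593T libraries were left out. Each such fit held a single library of either variant, so its residual degrees of freedom came from WT and R820W only. Script steps were tested on simulated data. DESeq2 1.42.0 and limma 3.58.1 (voom) were alternatives, with other normalization, filters and blocks, and each library left out. All pairs of libraries differed beyond sampling noise (smallest chi-square per gene 6.42). Promoters are from RefSeq (GRCh38.p14), used for sequence only.

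Named genes are CARD14 and MYC, then up to 12 each way of smallest p whose mean is 5 CPM or more and whose direction is shared by A and B. Each list gives up to 4 members with unadjusted p under 0.05 and the 2 of highest CPM. The 5 largest differences each way in A and in B are added. They come from genes with a mean of at least 20 CPM over that letter's N737H and I593T libraries. The 5 largest each way in opposite directions are added from genes of at least 20 CPM over the 4 libraries. Named after their values were seen were SLMO2-ATP5E, RPL17-C18orf32, CSF3, IL1A, IL1B, TNFAIP3, NFKBIA, BCL10, MALT1, CYR61, FOSL1, SERPINB2, COL17A1, HSF1, PSMD3, MORC4 and KCNQ1OT1, and IL8, CXCL1 and others came from their lists. Items withheld for evaluation are left out of the text and figures. The comparison and the lists were chosen with earlier results of these data known.

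Same-letter deviations from group means correlated at 0.31 for N737H with I593T, at 0.02 for WT with N737H and at 0.36 to 0.43 for the other pairs. The letter was kept as a block because the comparison was set up that way.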

Additional observations from a re-analysis of the deposited data

Results flagged for a closer look

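The difference between N737H and I593T itself differed between the letters for 5 of the named genes, by a test of the letter difference in edgeR with separate N737H and I593T terms in each letter. The log2 difference in B minus that in A was -8.79 for SENP3 (adjusted p = 7.7e-12) and -3.69 for PTP4A2 (adjusted p = 2.2e-07), both high in the I593T library B alone. It was 2.43 for BC016143 (adjusted p = 0.0040), 2.02 for LOC643406 (adjusted p = 0.036) and 2.01 for LOC100131257 (adjusted p = 0.023), all high in the N737H library B. The test has 1 residual degree of freedom and was added after the data were seen. That degree of freedom comes from WT and R820W only, because every N737H and I593T library has its own term. Its p-values therefore do not measure how far libraries of N737H or I593T spread.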

How the results depend on the processing

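With 2 libraries per group, depth did not limit the abundant genes, while genes of a few CPM rest on few counts. The number of genes past the threshold was 0 in edgeR with no replicate block, with only the 4 libraries, with RLE size factors, with the stricter filter, with CARD14 removed, and in DESeq2 and voom. It was 1 with no filter on low counts (CTLA4, named after its value was seen), 17 in A alone, 129 in B alone, and 0 to 2 with each library left out, the 2 being SENP3 and PTP4A2 without the I593T library A. The number with unadjusted p under 0.05, 278 as reported, was 154 with no replicate block, 446 with only the 4 libraries and the replicate block, 88 with only the 4 libraries and no replicate block, 550 with no filter, 145 in DESeq2 with no replicate block, 157 in A alone and 1560 in B alone. With each library left out it ran from 45 (without the I593T library B) to 1305 (without the N737H library A), and was 529 and 603 without the WT libraries A and B, 116 and 112 without the R820W libraries, 758 without the I593T library A and 156 without the N737H library B. The number in A alone, 17, was 0 with no replicate block and 0 with at least 10 counts in all 4 libraries, 21 with no filter and 17 with RLE. CARD14 ranged from -0.79 to 0.26 with each library left out, and no alternative called it. For 101 named genes over 20 alternatives there were 2017 values. Of these, 86 had the other sign, and 27 passed the threshold, all of them in A alone, B alone or without the I593T library A. A sign change is counted as a reversal where the value and its alternative each exceed their SE. There was 1, IGFBP6, at 0.39 without the I593T library B (range -1.71 to 0.39 over the libraries left out). The causes were not tested. Of 46 list medians, 27 changed sign under at least 1 alternative and 19 under none. Those that changed included YAP targets (to 0.08), ribosome biogenesis (to 0.03), p53 targets (to 0.02), proliferation (to -0.16), interferon-stimulated genes (to -0.08) and the IL-1 family, in 16 alternatives. Those with no sign change included the chemokine, secreted cytokine, SPRR, hemidesmosome or plasminogen lists, whose medians ranged from -0.34 to -0.04, -0.42 to -0.17, -0.59 to -0.21, -0.49 to -0.11 and -0.42 to -0.14.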
